A study of Mus musculus with 77 samples.

Results

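The comparison described here is of tagged germ cell RNA from mouse testes 12h after an injection of retinoic acid (RA) with the same RNA at time 0, before any RA. It rests on 4 of the 77 arrays of the series, 2 at 12h and 2 at time 0, all those labelled Stra8-cre IP at these times. The mice were neonatal FVB/N animals with the RiboTag allele, a ribosomal protein gene that gains an epitope tag in cells that have expressed Cre, and Cre was driven by the Stra8-cre transgene, which is active in germ cells. Both groups had received BDAD, an inhibitor of RA synthesis, for 9 days. The 12h animals were then injected with RA and the time 0 animals were killed without an injection. IP RNA is the polysome-associated RNA precipitated with the tagged ribosomes. It was set beside whole-testis total RNA of the same line (2 arrays at 12h, 4 at time 0), beside IP RNA from Amh-cre mice, in which Sertoli cells are tagged (2 and 2), and beside Stra8-cre IP RNA at 4h, 24h and 48h (2 each). The labels used here give no age, no vehicle-injected group and no uninjected group at 12h, so RA, the injection, age and the end of BDAD dosing cannot be told apart. They also do not say that arrays of a group came from separate animals, and all p-values measure the spread between arrays.

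Spermatogonia that remain stem-like depend on GDNF from Sertoli cells, which acts through the RET and GFRA1 receptors and in part through the ERK kinases. RA moves them into differentiation: it binds nuclear RA receptors on DNA, Stra8 and Kit come on, and the cells divide in step towards meiosis. Without RA, as under BDAD, undifferentiated spermatogonia accumulate, so a dose of RA starts a synchronous wave.

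The IP arrays carried the germ cell label. The germ cell and piRNA list (21 genes measured, among them Ddx4, Dazl and Mael) summed to 67132 and 67756 intensity units in IP RNA at 12h and to 69693 and 64891 at time 0, whereas total RNA gave 26832 to 28599 at 12h and 21278 to 24681 at time 0. Ddx4, an RNA helicase of all germ cells, read 5147 and 5384 at 12h and 5553 and 5449 at time 0 (-0.06 ± 0.18 on the log2 scale, adjusted p = 0.9997, limma). This difference was smaller than its SE, though both 12h arrays lay below both time 0 arrays. Arrays of the 2 groups did not overlap in 47.7% of all genes. Sertoli RNA was still present: the 29 Sertoli genes measured summed to 34742 and 30938 at 12h and to 32188 and 43858 at time 0, against 99655 to 101928 in total RNA at 12h and 100354 to 108336 at time 0. The replicate 2 array at time 0 was the highest of the 4 for Sertoli, Leydig, peritubular myoid, macrophage and endothelial lists. Which spermatogonia carried the tag was not measured, and in bulk RNA a change in the number of cells and a change in RNA per cell cannot be told apart.

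Calls required an adjusted p under 0.05 in limma (Benjamini-Hochberg over 19938 genes) and a change of at least 2-fold. At 12h, 95 genes were called, which is 0.476% of those tested: 28 were higher (0.14%) and 67 lower (0.336%). Without the 2-fold minimum 916 genes passed (4.59%), 396 upwards (1.99%) and 520 downwards (2.61%). The median difference over all genes was -0.003 on the log2 scale, and all 95 genes had 12h arrays that did not overlap the time 0 arrays, which held for 47.7% of all genes. Stra8, Tmem255a, Kit and Scd1 had the largest increases, and Hsd17b3, Six4 and Egr2 the largest decreases. The gene lists used below were chosen with earlier results of these data known. A list count beside the share of all genes is therefore a description and not a test.

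**Figure D1:**
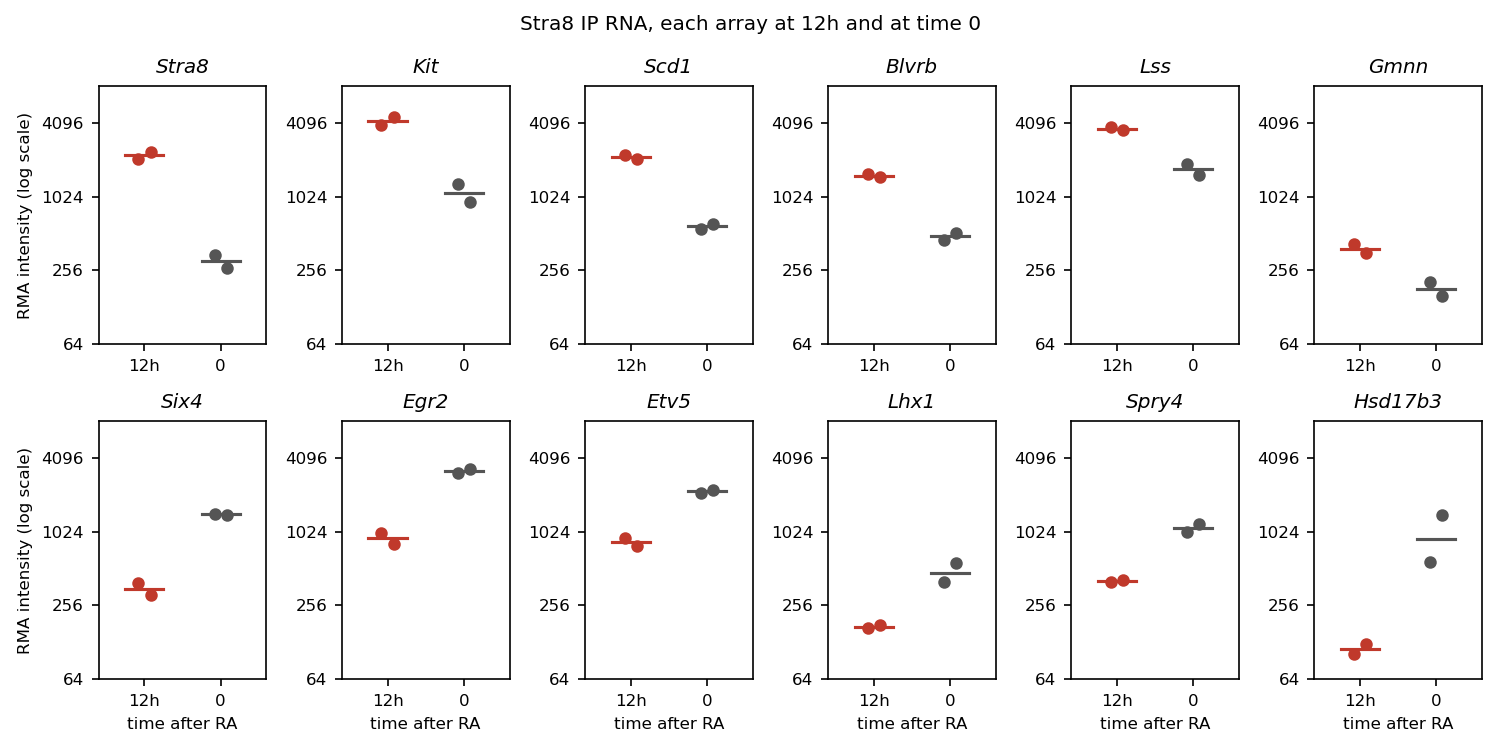
RMA intensity (log scale) of 12 genes on each Stra8 IP array, with 12h (red) left of time 0 (grey). Each point is 1 array and each line the mean of the log2 values. In all 12 genes the arrays of the groups are apart, as in all 95 called genes and in 47.7% of all genes. At time 0 Hsd17b3 is the most spread, at 577 and 1385.

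Stra8, the RA target needed to enter meiosis, had the largest difference of the 28 higher genes. It read 2073 and 2386 on the 12h arrays, against 343 and 268 on the time 0 arrays, a log2 difference of 2.87 ± 0.38 (SE; adjusted p = 6.26e-07, limma). Kit, the receptor of Kit ligand that marks differentiating spermatogonia, read 3917 and 4582 at 12h, against 1293 and 929.5 at time 0 (1.95 ± 0.29, adjusted p = 5.47e-06, limma). Both 12h arrays were above both time 0 arrays for each gene, as in all 28 higher genes. Kit stayed near the 12h level afterwards, at 3854 and 4047 at 24h, then 5057 and 5289 at 48h, whereas Stra8 read 1313 and 1848 and then 1072 and 808. The difference between 24h and 12h did not pass for Stra8 (-0.51 ± 0.38, adjusted p = 0.698, limma) or for Kit (-0.10 ± 0.29).

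Cyp26a1 and Rarb, direct targets of RA, were higher at 4h than at 12h. Of the RA-induced list (21 genes measured), Stra8 alone was called at 12h, and 4 passed the adjusted p without the 2-fold minimum, all upwards, beside 1.99% of all genes (median 0.15). With 1 array left out 1 or 2 passed. The RA-degrading enzyme Cyp26a1 read 149 and 156 at 12h and 88.8 and 90.1 at time 0, and did not pass (0.77 ± 0.43, adjusted p = 0.463, limma). At 4h it had read 623 and 720.4, so that 12h minus 4h was -2.14 ± 0.43 (adjusted p = 0.000539, limma). Rarb, an RA receptor that is itself an RA target, had the same shape, reading 126 and 138 at time 0, 623 and 594 at 4h, then 232 and 270.4 at 12h. Its 12h value exceeded time 0 by less than 2-fold (0.93 ± 0.25, adjusted p = 0.02) and was below 4h (-1.28 ± 0.25, adjusted p = 0.000459, limma). With any 1 of the 4 arrays of 12h and time 0 left out, its difference from time 0 did not pass. The cohesin gene Rec8, which acts in meiosis, read 1110.4 and 1025 at 12h and 596 and 558 at time 0 (0.89 ± 0.23, adjusted p = 0.0149), also short of 2-fold. Dhrs3, which reduces retinaldehyde back to retinol, read 745 and 576 at 12h and 358 and 438 at time 0 and did not pass in germ cell RNA (0.73 ± 0.30), while it rose in Amh-cre IP RNA (1.95 ± 0.30).

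The sequences before the start sites of 3 of these genes are shown because RA receptors, paired with RXR, bind direct repeats of AGGTCA-like half-sites. Each run is 250 bases upstream of the start, 5′ to 3′ on the gene's strand, from RefSeq on GRCm38.p6.
Stra8, chr6:34920698-34920947, plus strand, with AGGTCA in capitals at 194 to 189 and 38 to 33 bases upstream: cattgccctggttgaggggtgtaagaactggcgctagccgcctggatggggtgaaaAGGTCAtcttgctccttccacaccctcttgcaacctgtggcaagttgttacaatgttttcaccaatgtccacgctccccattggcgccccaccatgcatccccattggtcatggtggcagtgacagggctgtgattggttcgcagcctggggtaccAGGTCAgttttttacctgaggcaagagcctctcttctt
Cyp26a1, chr19:37697558-37697807, plus strand, with its DR5 match in capitals at 32 to 16 bases upstream: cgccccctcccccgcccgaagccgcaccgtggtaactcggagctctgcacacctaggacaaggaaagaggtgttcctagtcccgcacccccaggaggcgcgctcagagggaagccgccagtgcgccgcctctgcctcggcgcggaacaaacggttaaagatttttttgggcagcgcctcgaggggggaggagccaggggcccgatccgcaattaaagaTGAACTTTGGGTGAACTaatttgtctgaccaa
Rarb, chr14:16575477-16575726, minus strand, with its DR5 match in capitals at 53 to 37 bases upstream: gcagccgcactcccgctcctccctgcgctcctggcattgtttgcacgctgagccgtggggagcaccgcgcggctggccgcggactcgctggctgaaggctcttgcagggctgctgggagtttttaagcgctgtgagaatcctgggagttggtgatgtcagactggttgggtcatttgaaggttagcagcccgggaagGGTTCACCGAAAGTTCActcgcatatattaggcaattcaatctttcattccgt
DR5 names a pair of half-sites with 5 bases between them. On either strand a DR5 match stood in 29 of 32851 such windows (0.088%) and a single AGGTCA in 4607 (14%). The windows of Kit and Etv5 held none of the searched motifs, which besides AGGTCA and its direct repeats DR1, DR2 and DR5 were the E-box CACGTG and the EGR site GCGTGGGCG. Among called genes with a window, a DR5 match stood in 1 of 22 higher genes (Blvrb, 19 to 3 bases before the second of its 2 starts) and 0 of 46 lower ones, against 11 of 15614 tested genes (0.07%). AGGTCA stood in 3 of the 22 and 10 of the 46, against 14.3% of tested genes. A match describes these letters and is not a test of binding.

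Among genes of retinoid handling 1 was called. Of 16 measured genes of RA synthesis, storage and transport this was Rdh11, a retinol dehydrogenase, beside 0.14% of all genes called higher. It read 895 and 770.4 at 12h, against 363 and 409.6 at time 0 (1.11 ± 0.18, adjusted p = 3.15e-05, limma), and at 0.999 it came just under 2-fold without replicate 1 of 12h. Aldh1a2, which makes RA in germ cells, read 1911 and 1787 at 12h and 1382 and 1228 at time 0 (0.50 ± 0.13, adjusted p = 0.0102). Aldh1a1, its Sertoli counterpart, read 1575 and 1502 at 12h and 2039.9 and 3805 at time 0 (-0.86 ± 0.22), with the higher time 0 value on replicate 2, the array highest in Sertoli genes. Without replicate 1 of time 0 the synthesis, storage and transport list also held a called decrease. Of the 6 RA and retinoid X receptors none was called. Rxrg passed the adjusted p at a low signal, but not without replicate 1 of time 0 (154 and 145 at 12h, 265 and 203 at time 0, -0.63 ± 0.12).

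The genes that GDNF maintains in stem-like spermatogonia fell at 12h in part. Of 17 measured GDNF-responsive genes 3 were called lower, Egr2, Lhx1 and Etv5, none higher, beside 0.336% of all genes called lower, and 7 passed downwards without the 2-fold minimum, beside 2.61% of all genes (median -0.41). Without replicate 2 of time 0, or replicate 2 of 12h, 4 passed downwards. Egr2, a zinc finger transcription factor, read 1001 and 811 at 12h, against 3075 and 3329 at time 0 (-1.83 ± 0.17, adjusted p = 2.47e-10, limma). Etv5, an ETS factor needed for stem cell renewal, read 910.0 and 774 at 12h and 2111 and 2242 at time 0 (-1.37 ± 0.22, adjusted p = 1.96e-05). Lhx1, a LIM homeobox factor, was dimmer, at 167 and 176 at 12h and 393 and 569 at time 0 (-1.47 ± 0.15, adjusted p = 5.83e-10). In all 3 the arrays of the groups did not overlap, as in all 95 called genes and in 47.7% of all genes. The GDNF receptor genes were not called: Ret read 3183 and 2924 at 12h and 5149 and 5131 at time 0 (-0.75 ± 0.18, adjusted p = 0.00724) and Gfra1 read 3319 and 3742 at 12h, against 4764 and 5235 at time 0 (-0.50 ± 0.18, adjusted p = 0.107, limma). Other members of the list, Bcl6b (0.17) and Pou3f1 (0.21), lay above 0 and did not pass.

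The ERK list holds genes that ERK activity induces: sprouty, spred and phosphatase genes, most of which damp receptor or ERK signalling, and the ETS factors Etv1, Etv4 and Etv5. Of 18 measured 3 were called, all lower, beside 0.336% of all genes: Spry4, Dusp6 and Etv5, which is also in the GDNF list (list median -0.19). Spry4, an inhibitor of receptor tyrosine kinase signalling, read 396 and 412 at 12h, against 1011 and 1184 at time 0 (-1.44 ± 0.15, adjusted p = 4.29e-09, limma). Dusp6, the phosphatase of ERK, read 1269 and 1010.3 at 12h and 2567 and 2909 at time 0 (-1.27 ± 0.23, adjusted p = 0.000178). Etv4 (-0.56, adjusted p = 0.00928) and Phlda1 (-0.57, adjusted p = 0.00751) passed only without the fold minimum, where 5 genes of the list passed downwards (3 without either time 0 array or without replicate 2 of 12h), and Spry1 (0.05) and Spry2 (-0.01) were near 0. Of 22 immediate early genes Egr2, which is also in the GDNF list, was called, beside 0.336% of all genes called lower. Egr1 (-0.99, adjusted p = 0.0035) and Egr4 (-0.63, adjusted p = 0.0176, limma) passed downwards without the minimum. With Egr2 the list's count was 3, beside 2.61% of all genes, and it was smaller without replicate 2 of 12h. Fos (0.17), Jun (-0.02) and Nr4a1 (-0.04) did not pass.

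**Figure D2:**
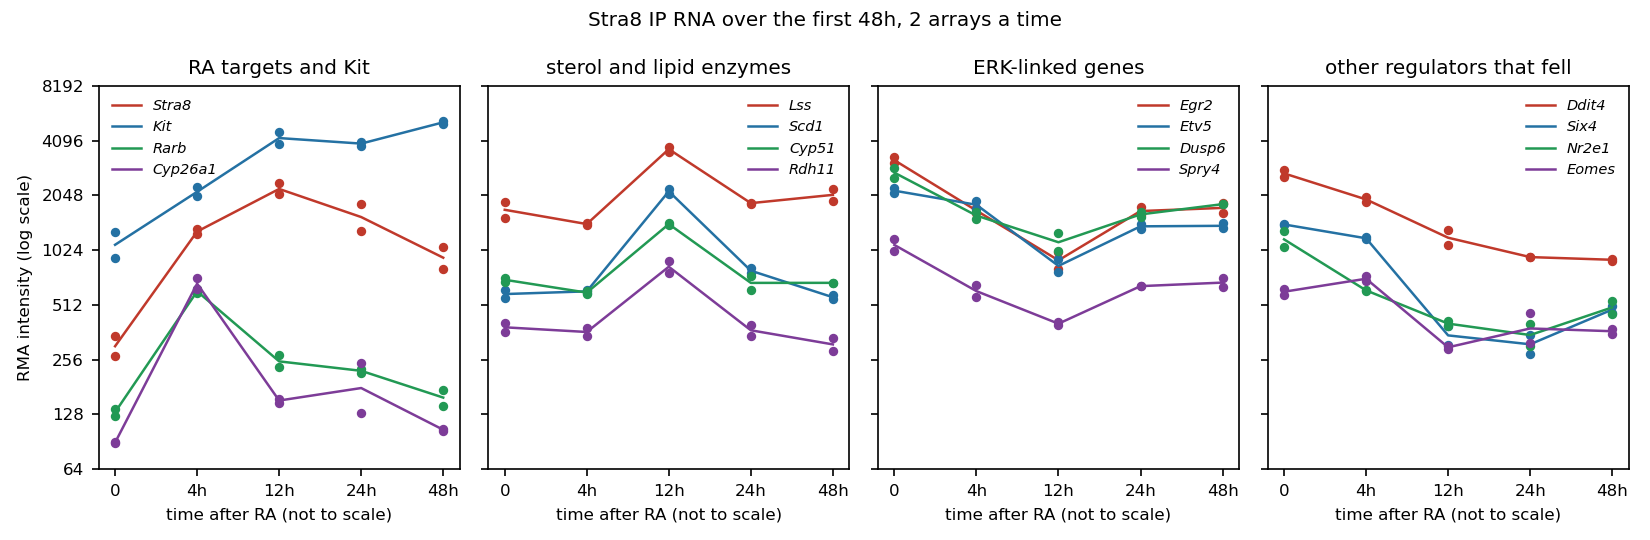
RMA intensity (log scale) in Stra8 IP RNA at 0, 4h, 12h, 24h and 48h after RA, 2 arrays (points) a time, with lines through the means of the log2 values. Cyp26a1 and Rarb are highest at 4h, the 4 lipid enzymes at 12h only, Egr2, Etv5, Dusp6 and Spry4 are lowest at 12h, and Six4 stays low at 24h.

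Egr2, Lhx1, Spry4, Etv5 and Dusp6 were lowest at 12h, and the 24h arrays were higher for 3 of these 5. Egr2 read 3075 and 3329 at time 0, 1745 and 1638 at 4h, 1001 and 811 at 12h, 1776 and 1591 at 24h, then 1650.2 and 1855 at 48h. Tested directly, the 24h arrays were above the 12h arrays for Egr2 (0.90 ± 0.17, adjusted p = 0.000798), Lhx1 (0.67 ± 0.15, adjusted p = 0.00537) and Spry4 (0.69 ± 0.15, adjusted p = 0.00709, limma), each by less than 2-fold. Egr2 did not pass without replicate 2 of 12h, and Lhx1 did not without replicate 2 of 24h. Spry4 did not pass without replicate 2 of 12h or without either 24h array. Etv5 missed the threshold with all arrays (0.72 ± 0.22, adjusted p = 0.0652), as did Dusp6 (0.51 ± 0.23, adjusted p = 0.326, limma). These tests use the same 12h arrays as the choice of the genes.

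Six4, a sine oculis-type homeobox factor, had the largest decrease of the homeobox and T-box factors in the list. It read 1430.2 and 1407 at time 0, 1208 and 1173 at 4h, 391 and 309.8 at 12h, 351 and 275 at 24h, then 459 and 507 at 48h. The difference was -2.03 ± 0.19 for 12h minus time 0 (adjusted p = 2.49e-10) and -1.77 ± 0.19 for 12h minus 4h (adjusted p = 5.02e-09, limma). For 24h against 12h it did not pass (-0.16 ± 0.19, adjusted p = 0.877, limma). The tests against 4h and 24h use the same 12h arrays as the choice of Six4. Of 36 measured homeobox and T-box factors, Six4, Lhx1 and Eomes were called, all lower, and none higher (list median -0.06), beside 0.336% of all genes called lower. Lhx1 is also in the GDNF list. Eomes, a T-box factor of stem-like spermatogonia, read 304 and 294 at 12h, against 583 and 627 at time 0 (-1.02 ± 0.17, adjusted p = 3.7e-05, limma), and was not called without replicate 2 of time 0 (-0.96) or of 12h (-0.99). Tbx3 read 949 and 883 at 12h and 1666 and 1521 at time 0 (-0.80 ± 0.13, adjusted p = 2.12e-05), short of 2-fold, and Hoxb4 (-0.31) did not pass.

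Nr2e1, Nr5a2, Sall1, Tcl1 and Bcor were also called lower, of which Nr5a2, Tcl1 and Bcor were singled out after their values were seen. The nuclear receptor Nr2e1 read 419 and 389.8 at 12h, against 1301 and 1060.3 at time 0 (-1.54 ± 0.20). Nr5a2, a nuclear receptor known from pluripotent cells, read 290.3 and 260.5 at 12h and 688 and 710.4 at time 0 (-1.35 ± 0.20). Sall1, a zinc finger factor, read 857 and 830.5 at 12h and 1927 and 1798 at time 0 (-1.14 ± 0.17). Tcl1, a coactivator of AKT, read 880.0 and 649 at 12h, against 1903 and 1735 at time 0 (-1.27 ± 0.19), and Bcor, a BCL6 corepressor, 459 and 421 at 12h, against 1014 and 845 at time 0 (-1.07 ± 0.20). In each of these 5 genes both 12h arrays lay below both time 0 arrays, as in all 67 lower genes. The largest adjusted p of the 5 was 0.000369 (Bcor, limma). Bcor was not called without replicate 1 of time 0 (-0.94). Nefm, a neurofilament subunit, read 164 and 148 at 12h and 533 and 398 at time 0 (-1.56 ± 0.15), and Mpzl2, an adhesion protein, 356 and 318 at 12h, against 1053 and 1151 at time 0 (-1.71 ± 0.23). Fbxo32, a ubiquitin ligase subunit that FOXO factors induce in muscle, read 906 and 884 at 12h, against 2729 and 2491 at time 0 (-1.54 ± 0.15).

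The wider list of undifferentiated spermatogonia markers (28 measured) had 2 called genes, Eomes and Shisa6, both lower, beside 0.336% of all genes. Without the 2-fold minimum 10 passed downwards, beside 2.61% of all genes, and 0 upwards (median -0.34). The 10 became 6 without replicate 2 of time 0 and 5 without replicate 2 of 12h. Among those 10 were Foxc2 (-0.93, adjusted p = 0.000975), Id4 (-0.92, adjusted p = 0.000151, limma) and Ret. The lists overlap: Id4, Ret and Nanos2 also passed as members of the GDNF list, and Eomes is also in the homeobox and T-box list. Id4, an inhibitor of bHLH factors that marks stem cells, read 726 and 628 at 12h and 1375 and 1186 at time 0. Zbtb16, the PLZF repressor of undifferentiated cells, read 5844 and 5910.1 at 12h and 7671 and 7629 at time 0 (-0.38 ± 0.12, adjusted p = 0.0634, limma) and did not pass. Sall4 (0.12), Pou5f1 (0.17) and Lin28a (-0.17) did not either. Shisa6, read as 161 and 187 at 12h and 399 and 854 at time 0 (-1.75 ± 0.39, adjusted p = 0.00287), also fell in Amh-cre IP RNA, to 193 and 243 at 12h, against 2695 and 2594 at time 0 (-3.61 ± 0.39, adjusted p = 9.77e-10, limma). It was not called without replicate 2 of time 0 (-1.20) or replicate 1 of 12h (-1.64).

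Markers of differentiating spermatogonia beyond Stra8 and Kit mostly did not pass at 12h. Of 17 measured, 2 were called higher and 1, Sall1, lower, beside 0.14% and 0.336% of all genes. Rhox10, a germ cell homeobox gene, passed only without the fold minimum (0.73, adjusted p = 0.00131, limma). The bHLH factors Sohlh1 (0.44, adjusted p = 0.116) and Sohlh2 (0.51, adjusted p = 0.279) did not pass, nor did Dmrtb1 (-0.24), Dnmt3a (-0.14) or Dnmt3b (0.30). In the list of meiotic entry and prophase (33 measured) none was called and Rec8 alone passed without the minimum, but not with any 1 of the 4 arrays left out (median 0.19). Iho1, needed for meiotic double-strand breaks, stood at 0.97 with an adjusted p of 0.0781, and Sycp3, Sycp1 and Prdm9 lay between -0.15 and 0.07.

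Most enzymes of cholesterol synthesis were higher at 12h, by less than 2-fold. Lss and Cyp51 were called of 17 measured genes, and 14 of the 17 passed upwards without the 2-fold minimum, beside 1.99% of all genes (median 0.52). With 1 array left out the 14 became 8 (replicate 1 of time 0), 7 (replicate 2 of time 0), 7 (replicate 1 of 12h) or 9 (replicate 2 of 12h). Lss, lanosterol synthase, read 3792 and 3572 at 12h, against 1885 and 1547 at time 0 (1.11 ± 0.20, adjusted p = 0.000151, limma). Cyp51, lanosterol demethylase, read 1437 and 1412 at 12h, against 724 and 684 at time 0 (1.02 ± 0.20, adjusted p = 0.000674). Without replicate 2 of time 0 neither reached 2-fold (0.97 for Lss and 0.98 for Cyp51). Just short of the fold were Mvd (0.98) and Idi1 (0.87), both of the mevalonate branch, followed by Mvk (0.86) and the sterol sensor gene Insig1 (0.76). Srebf2 (0.09), the master regulator of the pathway, Fdft1 (0.15) and Pmvk (0.34) did not pass. Outside the list, the fatty acid desaturase Scd1 read 2233 and 2084 at 12h, against 561 and 615 at time 0 (1.88 ± 0.41, adjusted p = 0.00249, limma).

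For Scd1 and Cyp51 the 24h levels were near those of time 0. The arrays of Scd1 read 561 and 615 at time 0, 594 and 622 at 4h, 2233 and 2084 at 12h, 765 and 815 at 24h, then 579 and 550.1 at 48h. Cyp51 gave 724 and 684 at time 0, 612 and 585 at 4h, 1437 and 1412 at 12h, then 738 and 620.2 at 24h. Of the 17 genes 5 were called higher at 12h than at 4h (list median 0.80) and 4 lower at 24h than at 12h (median -0.78), beside 0.15% and 0.0903% of all genes. The 5 became 3 without replicate 1 of 12h, and the 4 became 2 without replicate 2 of 24h. Both steps share their 12h arrays with the comparison to time 0. In whole-testis RNA Lss (0.50 ± 0.17), Cyp51 (-0.19 ± 0.17) and Scd1 (1.06 ± 0.36) were not called. In Amh-cre IP RNA Cyp51 went the other way, at 352 and 324 at 12h and 795 and 770.4 at time 0 (-1.21 ± 0.20, adjusted p = 1.49e-05), and Insig1 fell too (-1.17). The germ cell change minus the Sertoli cell change was 2.23 ± 0.28 for Cyp51 (adjusted p = 2.27e-07, limma). Rdh11 kept the same times, at 346 and 382 at 4h, 895 and 770.4 at 12h, then 347 and 397 at 24h.

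A second group of higher genes was already high at 4h and near its time 0 level at 24h. Blvrb, biliverdin reductase B, read 455 and 520.3 at time 0, 1233 and 1264 at 4h, 1555 and 1478 at 12h, then 565 and 679.6 at 24h. Its 12h change was 1.64 ± 0.16 (adjusted p = 4.05e-10, limma). Gdap1l1 read 328 and 305 at time 0, 863 and 749 at 4h, 1076 and 869.6 at 12h, then 383 and 413 at 24h (1.61 ± 0.18 at 12h). Pgbd5, a domesticated transposase, read 550.2 and 541 at time 0, 1559 and 1466 at 4h, 1679 and 1531 at 12h, then 512 and 674 at 24h (1.56 ± 0.18 at 12h). All 3 were called lower at 24h than at 12h, with differences of -1.29, -1.28 and -1.45. None of the 3 passed between 12h and 4h. Both tests use the same 12h arrays as the choice of these genes. H2-Q2, a class I histocompatibility gene of a near-identical family whose probes may cross-read, read 845 and 786 at 12h and 358 and 299 at time 0 (1.32 ± 0.16), and St8sia6, a sialyltransferase, 353 and 433 at 12h, against 169 and 152 at time 0 (1.29 ± 0.14).

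Among genes of growth and division, Ddit4, which restrains mTORC1, read 1319.7 and 1089 at 12h, against 2826 and 2596 at time 0 (-1.18 ± 0.12, adjusted p = 5.83e-10, limma). Apart from Kit it was the only called gene of 20 in the list of KIT, PI3K, AKT and mTOR signalling, beside 0.476% of all genes. In that list Foxo1 (-0.52) and Pik3ca (-0.52) passed downwards and Mtor (0.55) and Akt1 (0.36) upwards without the minimum. The list's count of genes that passed upwards, Kit included, was 3, and 1 without replicate 2 of time 0. Cdkn1b, the CDK inhibitor p27, read 1073 and 918 at 12h and 1707 and 1661 at time 0 (-0.76 ± 0.09, adjusted p = 1.15e-08, limma). It was short of 2-fold, with no overlap of the arrays, beside 47.7% of all genes. Cyclin E1 (Ccne1 0.73) and Cdk6 (0.47) passed upwards without the minimum (a count of 2 for the list, of 1 without either time 0 array and of 0 without replicate 1 of 12h), and Ccnd1 (-0.35), Ccnd2 (0.43) and Myc (-0.58) did not.

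In the DNA replication list all 24 measured genes were above 0, none was called, and 7 passed without the 2-fold minimum, beside 1.99% of all genes passing upwards (median 0.41): Cdc45, Cdc6, Prim1, Cdt1, Mcm4, Mcm6 and Pcna. The 7 became 0 without replicate 2 of time 0 or replicate 1 of 12h, and 1 without replicate 2 of 12h. Cdc45, a subunit of the replicative helicase, read 2333 and 1939 at 12h and 1405 and 1173 at time 0 (0.73 ± 0.19, adjusted p = 0.013, limma). Outside the list, 3 called genes were singled out after their values were seen: Gmnn, the licensing inhibitor geminin, read 424 and 353 at 12h, against 205 and 158 at time 0 (1.10 ± 0.17), E2f8, a repressor of the E2F family, 1378 and 1315 at 12h, against 629.7 and 613 at time 0 (1.12 ± 0.24), and the histone chaperone Dnajc9 1495 and 1271 at 12h, against 748 and 634 at time 0 (1.00 ± 0.17). H2ac4, a replication-dependent histone gene of a near-identical family, read 1618 and 1559 at 12h, against 687 and 549 at time 0 (1.37 ± 0.37, adjusted p = 0.0197). Without replicate 2 of time 0, H2ac4 (1.21), Gmnn (0.91) and Dnajc9 (0.88) were not called, nor without replicate 1 of 12h (1.34, 0.97 and 0.88), and H2ac4 was also not called without replicate 2 of 12h (1.40). The 22 mitosis genes had 0 called and 0 that passed without the minimum (median 0.14).

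**Figure D3:**
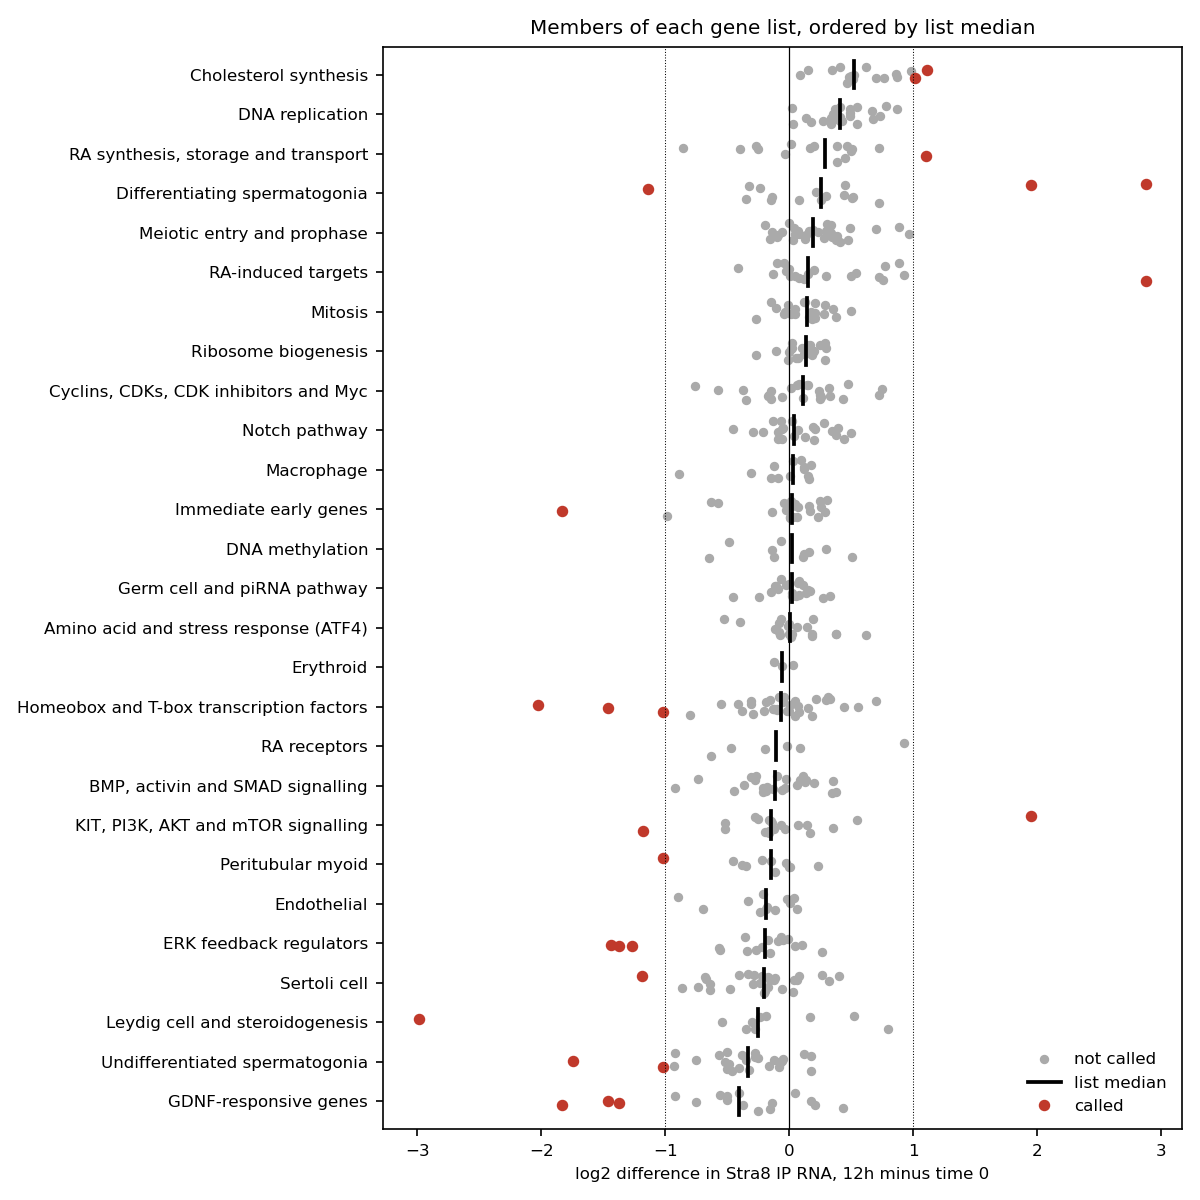
Log2 difference in Stra8 IP RNA, 12h minus time 0, of every measured member of the 27 gene lists, ordered by list median (black bar). Red points are called genes, dotted lines mark 2-fold, and the cholesterol synthesis list stands highest (median 0.52) and the GDNF-responsive list lowest (median -0.41).

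Among the lists with no called member were the germ cell and piRNA pathway (21 measured, median 0.02), ribosome biogenesis (22, median 0.13), the Notch pathway (23, median 0.04), BMP, activin and SMAD signalling (26, median -0.12), DNA methylation (10, median 0.02) and the ATF4 amino acid response (20, median 0.01). The BMP list had 1 gene called lower without replicate 2 of time 0 or replicate 1 of 12h. Piwil4 (-0.15) and Dazl (0.08) were near 0. Without the fold minimum Tet1, which oxidises methylcytosine, passed downwards, though not without replicate 2 of time 0 or replicate 1 of 12h (-0.64, adjusted p = 0.00829), as did follistatin, Fst (-0.74, adjusted p = 0.000169). Bmp4, a ligand of the same pathway that was not in the list, was called lower, at 466 and 467 at 12h, against 857 and 1235 at time 0 (-1.14 ± 0.17), but not without replicate 2 of time 0 (-0.88).

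Some called genes are known from somatic cells, and their values in the other RNA fractions stand beside them. Hsd17b3, the enzyme that makes testosterone from androstenedione, was the largest decrease: 102 and 124 at 12h, against 577 and 1385 at time 0 (-2.99 ± 0.41, adjusted p = 1.14e-06, limma). It was brighter in total RNA, where it read 254 and 342 at 12h and 2592, 2421, 3205 and 2446 at time 0 (-3.17 ± 0.35), and it also fell in Amh-cre IP RNA (-2.46 ± 0.41). Hsd17b1, which makes estradiol from estrone, read 298 and 251 at 12h and 556 and 891 at time 0 in germ cell IP RNA (-1.36 ± 0.32) and 471 and 378 at 12h, against 3059.8, 2797, 3697 and 2957 at time 0, in total RNA. Amh, the Sertoli hormone, read 490.2 and 417 at 12h and 699 and 1521 at time 0 (-1.19 ± 0.31, adjusted p = 0.0126). Sox9, the Sertoli transcription factor, read 2671 and 1652 at 12h, against 1346 and 2262 at time 0 (0.27 ± 0.20). Amh was not called without replicate 2 of time 0 (-0.63) or without either 12h array (-1.31 and -1.07), and Hsd17b1 not without replicate 2 of time 0 (-1.02) or of 12h (-1.24).

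No gene of the somatic lists was at the array floor of 25.8 to 26.3: the lowest value on the 4 arrays was 227 (Cst12) in the Sertoli list, 91.3 (Hsd11b1) in the Leydig list and 93.9 (Cd163) in the macrophage list. The floor is the lowest value of an array, and the array medians were 347 to 364. Whether such dim genes were detected was not tested. Of 29 Sertoli genes 1, Amh, was called lower and 0 higher (median -0.20), beside 0.336% of all genes called lower. The Sertoli count rose without replicate 1 of time 0 and fell without replicate 2 of time 0 or of 12h. Of 10 Leydig genes 1 was called lower, beside 0.336% of all genes (median -0.25, summed 5540 and 5049 at 12h, 5132 and 7236 at time 0). Of 11 peritubular myoid genes 1 was called lower, Ptch1, beside the same 0.336% (-1.02 ± 0.10, and not called at -0.99 without replicate 2 of 12h). The myoid median was -0.15, and the genes summed to 7405 and 7539 at 12h and to 9467 and 11810 at time 0. Of 13 macrophage genes (median 0.03; 3238 and 2982 at 12h, 3158 and 3564 at time 0), 12 endothelial genes (median -0.18; 5299 and 5002 at 12h, 6039 and 7059 at time 0) and 3 erythroid genes (median -0.06) none was called, and 1 endothelial gene was called lower without replicate 1 of time 0. The part of these cells in the 67 decreases was not tested. Tmem255a, higher at 706 and 1024 at 12h, against 137 and 209 at time 0 (2.33 ± 0.50, and not called at 2.06 without replicate 2 of 12h), was far brighter in Amh-cre IP RNA, at 6246 and 7186 at 12h and 314 and 391 at time 0. Btnl10 (1.45 ± 0.29) and Tspan17 (1.38 ± 0.24) were likewise higher in total RNA (1.57 and 1.33).

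To sort the 95 genes, IP and total RNA were compared at 4h, 24h and 48h, on arrays that the 12h comparison did not use. There, 1086 genes were at least 2-fold enriched in IP RNA (5.45%) and 1120 depleted (5.62%). Of the 28 higher genes 10 were enriched, 3 depleted and 15 neither. Stra8, H2ac4, H2-Q2, Gmnn and Iqgap3 were among the enriched, and the depleted were Tmem255a, Btnl10 and Tspan17. Of the 67 lower genes 14 were enriched, 16 depleted and 37 neither. Six4, Egr2, Sall1, Bcor and Eomes were among the enriched, and Hsd17b3, Hsd17b1, Amh and the Sertoli homeobox gene Rhox8 among the depleted. Decreases were thus found both among genes enriched in and among genes depleted from IP RNA. The sorting included the Stra8 total arrays labelled 4h, which an alternative fit, chosen after seeing the data, left out. Whether the classes hold without all of those arrays was not tested.

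**Figure D4:**
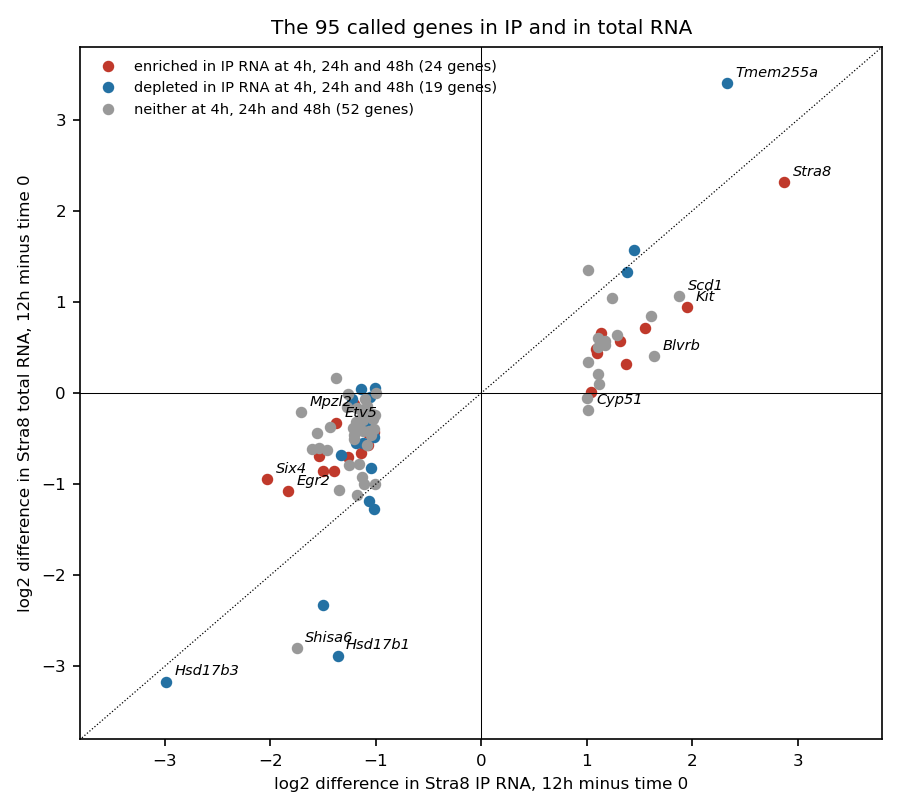
Log2 difference at 12h minus time 0 in Stra8 IP RNA (horizontal) against Stra8 total RNA (vertical) for the 95 called genes, coloured by IP enrichment at 4h, 24h and 48h. The dotted line marks equal differences; Six4, Egr2, Etv5 and Mpzl2 lie above it with a smaller fall in total RNA, and Hsd17b1 and Shisa6 below it.

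Whole-testis RNA, in which 92 genes were called at 12h (0.461%), showed the same direction in most of these genes. Of 28 higher genes 26 were above 0 in total RNA and 6 were called higher there, beside 0.286% of all genes. Of 67 lower genes 63 were below 0 and 9 were called lower, beside 0.176%. The medians were 0.57 and -0.44. Stra8 read 707 and 867 in total RNA at 12h, against 154, 164, 217 and 110.5 at time 0 (2.32 ± 0.33). Etv5, by contrast, read 672 and 654 at 12h and 846, 731, 856 and 902 at time 0 in total RNA (-0.33 ± 0.19, adjusted p = 0.309, limma). Whether IP and total RNA of 1 number came from the same animals is not stated in the labels.

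The difference between the IP change and the total change was tested itself, and 45 genes were called (0.226%), 16 with the larger value in IP RNA (0.0802%) and 29 with the smaller (0.145%). Six4 (-1.09 ± 0.26, adjusted p = 0.0194), Mpzl2 (-1.50 ± 0.31), Nefm (-1.12 ± 0.19), Spry4 (-1.06 ± 0.20) and Ddit4 (-1.01 ± 0.16) fell more in IP RNA than in total RNA, and Blvrb (1.24 ± 0.21) rose more. Cdkn1b fell in IP RNA and rose in total RNA, each short of 2-fold: total RNA read 2103 and 2234 at 12h and 1842, 1889, 1801 and 1706 at time 0 (0.26 ± 0.07, adjusted p = 0.0227). The IP change minus the total change was -1.02 ± 0.11 (adjusted p = 1.1e-07, limma). Etv5 (-1.05 ± 0.29, adjusted p = 0.0609), Kit (1.00 ± 0.38, adjusted p = 0.251) and Stra8 (0.55 ± 0.50, adjusted p = 0.767) did not pass. Blvrb was called whichever 1 of the 10 arrays was left out. Six4 was not called without either IP array of time 0 (-1.07 and -1.10), replicate 2 of IP RNA at 12h (-0.92) or replicate 1 of total RNA at 12h (-0.88). Mpzl2 was not called without replicate 2 of IP RNA at 12h (-1.42) or replicate 1 of total RNA at 12h (-1.15), nor Spry4 without that total array (-0.98) or replicate 2 of IP RNA at time 0 (-0.95). Without replicate 1 of IP RNA at time 0, Nefm (-0.91) and Ddit4 (-0.95) were under 2-fold. Ddit4 (-0.87 and -0.99) and Cdkn1b (-0.91 and -0.996) were also under it without replicate 2 of IP RNA at 12h or replicate 4 of total RNA at time 0, and Cdkn1b without replicate 2 of total RNA at 12h (-0.98). These tests share the IP arrays with the choice of the genes.

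Set against Sertoli RNA, the germ cell change differed for 427 genes (2.14%), 213 with a larger value (1.07%) and 214 with a smaller one (1.07%) in Stra8-cre than in Amh-cre IP RNA. In Amh-cre IP RNA itself 309 genes were called at 12h (1.55%), 173 higher (0.868%) and 136 lower (0.682%). Of the 28 genes higher in germ cell RNA 5 were called higher there and 2 lower, and of the 67 lower ones 8 were called lower and 0 higher. Stra8 rose more in germ cell RNA (1.89 ± 0.54, adjusted p = 0.0185), and Etv5 (-1.10 ± 0.31, adjusted p = 0.0155), Egr2 (-1.74 ± 0.24) and Dusp6 (-1.91 ± 0.32) fell more there. Dusp6 read 2050.4 and 2341 at 12h and 1227 and 1609 at time 0 in Amh-cre IP RNA (0.64 ± 0.23, adjusted p = 0.0573). For Kit the difference did not pass (0.94 ± 0.40, adjusted p = 0.17, limma). Kit read 517 and 456 at 12h and 235 and 248 at time 0 in Amh-cre IP RNA, and was itself called higher there. That call was lost without replicate 1 (0.97) or 2 (1.05) of Amh-cre at time 0, or without replicate 1 of Amh-cre at 12h (0.92). For the germ cell minus Sertoli cell difference, Egr2 and Dusp6 were called whichever 1 of the 8 arrays was left out. Stra8 was not called without replicate 1 (1.91) or 2 (1.87) of Amh-cre at time 0, or without replicate 2 of Amh-cre at 12h (1.65), Stra8-cre at 12h (1.79) or Stra8-cre at time 0 (1.71). Etv5 was not called without replicate 2 of any of these 4 groups (-1.08 to -0.79).

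Its neighbours in time were compared directly. Between 12h and 4h 142 genes were called (0.712%), 30 higher at 12h (0.15%) and 112 lower (0.562%). Between 24h and 12h 26 were called (0.13%): at 24h 8 were called higher than at 12h (0.0401%) and 18 lower (0.0903%). The lower genes at 12h against 4h included Hsd17b3 (-3.07), the small nucleolar RNA Snora23 (-2.44) and Cyp26a1, and the higher ones Septin14 (2.32), Scd1 and St8sia1 (1.59). Serpinb10 read 148 and 134 at 24h, against 593 and 479.6 at 12h (-1.92 ± 0.23, adjusted p = 5.29e-07, limma). The later arrays were higher for Crybg3 (1.28), Map7d3 (1.23) and Cd63 (1.17). Crybg3 was not called whichever 1 of the 4 arrays was left out (1.16 to 1.40). Map7d3 was not without replicate 1 of 12h (1.18) or replicate 2 of 24h (0.62), nor Cd63 without replicate 2 of 12h (0.95) or of 24h (0.98), nor St8sia1 against 4h without replicate 2 of 12h (1.19).

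With 1 array left out, the 12h comparison gave 157 calls without replicate 1 of time 0 and 74 without replicate 2, of which 85 and 58 were among the 95. Without replicate 1 of 12h 75 of the 95 were called, and without replicate 2 of 12h 68. None of the 95 changed sign in any of the 4 cases. That outcome was fixed in advance, because the arrays of the groups did not overlap in any of the 95.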

How the data were processed

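The table the authors deposited holds linear intensity after RMA, 1 colour per array, on a gene-level Affymetrix platform. The name RMA is per the submitters' processing notes; its software and settings were not given in the sources used here. RNA was extracted with RNeasy, amplified with Ovation V2 and labelled with the Encore biotin module, per the labels' protocols. Low intensities are compressed towards a floor near 26. Arrays carry no read depth, and their number sets the precision.

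Each deposited value was put on the log2 scale and not rescaled. From 28853 probe sets, 5443 without a listed gene and 1621 with several genes were left out. Where a gene had several probe sets (999 genes) the brightest was used, leaving 19938 genes. With R 4.3.3 (data.table version 1.17.8), limma 3.58.1 fitted for each of 35 groups a mean, using all 77 arrays and an intensity trend, and p-values were adjusted by Benjamini-Hochberg over all genes. Differences are the first-named minus the second-named group, with SE. Python 3.11.15, pandas 2.3.3 and matplotlib 3.10.9 were used for sequences and plots.

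The 2 arrays of a group correlated at 0.996 (12h) and 0.994 (time 0). Equal replicate numbers at 12h and time 0 deviated together (r = 0.256 across genes), but the labels name no shared animal and there are only 2 numbers, so they were not treated as pairs. On simulated data for the 12h comparison, without the fold minimum, 24 of 50 genes changed 1.5-fold, 47 of 50 changed 2-fold and 50 of 50 changed 3-fold or 4-fold were recovered. There were 16 false calls among the unchanged genes of the 19938. The simulated noise was normal and independent between genes, with each gene's spread over all groups. Shifts that many genes of an array share were absent, so the 16 is not a rate for the real arrays.

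Genes named are the 12 largest called differences in each direction (without predicted or clone symbols), 15 markers, all called members of 27 lists or otherwise the 4 largest differences of a list, and for the other comparisons the 3 largest in each direction; further genes were named after their values were seen, among them Nr5a2, Bcor, Tcl1, Gmnn, E2f8, Dnajc9, Bmp4 and Cdkn1b. The members and lists were chosen with earlier results of these data known. Alternatives left out each array of the compared groups in turn and dim genes, centred or quantile normalized the arrays, averaged probe sets, added a replicate block, dropped the trend or the fold minimum, or fitted fewer groups. Promoter windows came from RefSeq on GRCm38.p6.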

Additional observations from a re-analysis of the deposited data

Results flagged for a closer look

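Among the 4 total RNA arrays of the Stra8-cre line at time 0, 1 array stood apart for Btnl10, at 8.46 on the log2 scale, against 9.45 to 9.64 on the others. About 1 group in 20 is expected to show such a gap.

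The IP change and the total change differed for 45 genes at 12h. The largest differences, IP minus total, were 1.63 ± 0.26 for Emilin3 (adjusted p = 0.000139, limma), 1.31 ± 0.30 for Trim62 and 1.24 ± 0.21 for Blvrb, and -1.86 ± 0.34 for Erbb3, -1.72 ± 0.22 for Abcd2 and -1.58 ± 0.22 for Gjc3. Trim62 was not called without either IP or either total array of 12h or without replicate 1 of IP RNA at time 0 (1.18 to 1.36). Of the genes called in IP RNA, Six4 (-1.09), Mpzl2 (-1.50) and Nefm (-1.12) also differed. Emilin3, an extracellular matrix glycoprotein, read 701 and 563 at 12h and 616 and 713 at time 0 in IP RNA, and 467 and 436 at 12h and 1657, 1292, 1651 and 1317 at time 0 in total RNA. Erbb3, a receptor tyrosine kinase of the EGF receptor family, read 893 and 988 at 12h and 1563 and 1489 at time 0 in IP RNA (-0.70 ± 0.26, adjusted p = 0.128, limma), and 925 and 1354 at 12h, against 525, 483, 499.7 and 494 at time 0, in total RNA.

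The germ cell change and the Sertoli cell change differed for 427 genes. Stra8-cre minus Amh-cre, the difference was 2.71 ± 0.27 for Emilin3, 2.63 ± 0.53 for H2ac4 and 2.23 ± 0.28 for Cyp51, and -3.17 ± 0.26 for Dkk3, -3.15 ± 0.35 for Uchl1 and -2.68 ± 0.36 for Erbb3. It was 1.89 ± 0.54 for Stra8 and -1.10 ± 0.31 for Etv5. Uchl1, the ubiquitin hydrolase of spermatogonia, read 6258 and 6561 at 12h and 6920.5 and 6463 at time 0 in Stra8-cre IP RNA, and 5297 and 5378 at 12h and 621 and 637 at time 0 in Amh-cre IP RNA. Dkk3 read 456 and 391 at 12h and 768 and 593 at time 0 in Stra8-cre IP RNA, and 1312 and 1139 at 12h, against 207 and 229 at time 0, in Amh-cre IP RNA.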

How the results depend on the processing

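The 95 calls at 12h were 88 to 95 under the other fits with the 2-fold minimum and all arrays of the comparison, 95 with a replicate block, and 916 without the fold minimum. With 1 array left out they were 74 to 157. Leaving out 1 array gave 81 to 110 calls for total RNA, 24 to 46 for IP minus total (24 without Stra8 total 12h replicate 1, 27 without Stra8 IP 12h replicate 2), 293 to 321 for Amh-cre IP RNA, 375 to 470 for Stra8-cre minus Amh-cre, 108 to 146 for 12h against 4h, 23 to 43 for 24h against 12h (43 without Stra8 IP 24h replicate 1) and 2051 to 2351 for IP against total at the other times. A fit without the Amh-cre arrays labelled 4h and 4d and the Stra8 total arrays labelled 4h, chosen after seeing the data, gave 95. Of the named genes, Amh (-0.63), H2ac4 (1.21), Cyp51, Eomes, Lss, Shisa6, Slc24a5 (-0.96), Rhox8 (-0.62) and Snora23 (-1.24) were not called without replicate 2 of time 0. Without replicate 2 of 12h, Tmem255a (2.06), Iqgap3 (0.76) and Dppa2 (-0.86) were not called, and without replicate 1 of time 0 Fgd5 (-0.96) and Iqgap3 (0.999) were not. Dppa2 was also not called without replicate 2 of time 0 (-0.999) or with the mean of its probe sets (-0.78), nor Iqgap3 with quantile normalization (0.99). Leaving out 1 array turned the sign of 5 genes that were not called, whose values ranged from -0.26 to 0.011 (Alas2), -0.74 to 0.26 (Dmrtb1), -0.16 to 0.041 (Epb42), -0.048 to 0.11 (Slc4a1) and -0.11 to 0.64 (Sox9). The cause was not tested. The block changed no call among the 95.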

Other observations

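Small nucleolar RNA probe sets, singled out after their values were seen and given with no test, lay mostly below 0 in Stra8 IP RNA. Of 51, 43 were lower and 8 higher at 12h than at time 0 (median -0.23), and 2 were called lower, beside 0.336% of all genes (1 without either 12h array, 0 without replicate 2 of time 0). Against 4h, 14 were called lower at 12h, beside 0.562% of all genes (median -0.67). The 14 became 6 without replicate 1 of 4h and 9 without replicate 1 of 12h. In total RNA the median at 12h against time 0 was -0.22. Snora23 read 632 and 1045 at time 0, 1798 and 1171 at 4h, 251 and 285 at 12h, then 409 and 658 at 24h. Of 300 microRNA probe sets 223 were also lower and 77 higher at 12h than at time 0 in Stra8 IP RNA (median -0.06). Of these 300, 1 was called lower, beside 0.336% of all genes. The median of all genes was -0.003.

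Plvap, known from endothelium, was enriched in germ cell IP RNA and fell there. It read 321 and 336 at 12h, against 756 and 763 at time 0 (-1.21 ± 0.11, adjusted p = 2.49e-10, limma), and 849 and 834 at 4h. In total RNA it read 235 and 286 at 12h and 244, 307, 301 and 281 at time 0. Other called genes that had been near their time 0 level at 4h were Fgd5, an exchange factor for CDC42, at 1234 and 1057 at time 0, 1123 and 1277 at 4h, then 527 and 560.0 at 12h, and Dppa2, a chromatin factor of pluripotent cells, at 410.4 and 429 at time 0, 511 and 540.4 at 4h, then 231 and 183 at 12h. Pla2g7, a phospholipase that inactivates platelet-activating factor, fell in Stra8 IP RNA (-1.38 ± 0.16) and not in total RNA (0.17 ± 0.13), a difference of -1.55 ± 0.21 (adjusted p = 5.57e-06, limma).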
